A study of Mus musculus with 6 samples.

Results

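The insulin-like growth factor axis was examined in medullary thymic epithelial cells of Aire-deficient and wild-type mice. Its members were 10 genes, namely the ligands Igf1 and Igf2, the receptors Igf1r and Igf2r and the binding proteins Igfbp1 to Igfbp6. All probe sets whose platform annotation names exactly 1 of these genes were taken, and each was kept apart. This gave 15 probe sets for 9 genes, out of 10833 probe sets with exactly 1 gene that stood for 8251 genes. Igfbp5 was dropped, because the annotation of its probe set names another gene as well. The family was chosen by gene name with signals of these arrays already known, among them the genotype difference of Igf2. Genotype differences of the members are therefore given as a description. No single member's p-value is printed, and whether a member, or how many members, passed a threshold is stated as a property of the fit that supports nothing.

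The Aire-deficient group comprised 3 arrays of RNA from B6/129 F2 mice that carried a disruption of both Aire copies, and the wild-type group comprised 3 arrays of RNA from wild-type B6/129 F2 mice. Thymi of 5 animals aged 3 to 5 weeks, males and females, were pooled for each array, so the spread between arrays is a spread between pools. All cells were sorted as B7.1hi, CDR1int, G8.8+ and CD45-, and all RNA went through 2 rounds of T7 amplification. The Aire probe set was higher on the Aire-deficient arrays (202, 297 and 211) than on the wild-type arrays (59.9, 96.4 and 138), so it does not check the genotype. Where it lies relative to the disrupted stretch is not given in the labels.

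Insulin-like growth factors are small secreted hormones related to insulin. Both ligands signal through the tyrosine kinase receptor Igf1r, whereas Igf2r takes up Igf2 and carries it to lysosomes without such a signal. Binding proteins hold the ligands outside the cell and set how much of them reaches the receptors. Igf2 is an imprinted gene expressed from the paternal copy, and Igf2r is expressed in the mouse mainly from the maternal copy. Aire drives the transcription of many genes of peripheral tissues in medullary thymic epithelium, and Igf2 is known to be transcribed in thymic epithelium.

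The sequences before the transcript starts of the members are shown first, to set the CpG content of ligand, binding protein and receptor genes side by side. The 250 bases before each annotated start were read from RefSeq (GRCm38.p6) for all 9 genes, which gave 13 windows. All sequences run 5′ to 3′ along the gene's own strand, and capitals mark CpG dinucleotides. Igf2 has 4 windows, numbered along the gene, of which 1 and 3 hold the fewest and the most CpGs. The probe sets do not say which of these starts was used. Igf1 and Igf2 are ligands, Igfbp3 and Igfbp6 are the binding proteins with the largest falls, and Igf2r is a receptor whose groups overlapped. Igfbp1 and Igfbp2 had lower signals too, and their windows are not printed.
Igf1, chr10:87860861-87861110, + strand: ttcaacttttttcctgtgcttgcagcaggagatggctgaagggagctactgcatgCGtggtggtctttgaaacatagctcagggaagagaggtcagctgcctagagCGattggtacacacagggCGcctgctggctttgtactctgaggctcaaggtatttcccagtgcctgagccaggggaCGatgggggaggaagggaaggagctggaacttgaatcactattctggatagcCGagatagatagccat
Igf2 window 1, chr7:142666817-142667066, - strand: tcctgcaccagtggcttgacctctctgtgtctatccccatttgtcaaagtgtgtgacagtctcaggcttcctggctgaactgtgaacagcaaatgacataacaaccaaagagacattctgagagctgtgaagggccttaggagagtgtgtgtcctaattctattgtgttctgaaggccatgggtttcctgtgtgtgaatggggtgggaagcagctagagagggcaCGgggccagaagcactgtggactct
Igf2 window 3, chr7:142658805-142659054, - strand: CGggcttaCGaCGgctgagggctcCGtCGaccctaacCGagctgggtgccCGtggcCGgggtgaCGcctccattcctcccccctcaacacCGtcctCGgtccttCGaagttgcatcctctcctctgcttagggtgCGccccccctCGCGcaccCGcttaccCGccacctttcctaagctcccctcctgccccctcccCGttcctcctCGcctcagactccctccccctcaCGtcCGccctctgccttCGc
Igfbp3, chr11:7213924-7214173, - strand: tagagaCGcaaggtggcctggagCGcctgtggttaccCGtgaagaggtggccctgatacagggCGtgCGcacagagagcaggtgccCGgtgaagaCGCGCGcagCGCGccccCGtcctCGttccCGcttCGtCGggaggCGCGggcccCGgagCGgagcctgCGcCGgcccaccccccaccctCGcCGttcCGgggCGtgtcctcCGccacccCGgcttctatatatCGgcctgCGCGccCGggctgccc
Igfbp6, chr15:102143936-102144185, + strand: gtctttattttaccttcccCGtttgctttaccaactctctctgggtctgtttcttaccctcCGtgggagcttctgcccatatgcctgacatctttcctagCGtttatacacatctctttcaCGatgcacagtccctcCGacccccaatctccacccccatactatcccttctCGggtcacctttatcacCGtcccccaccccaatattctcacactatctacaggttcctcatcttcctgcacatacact
Igf2r, chr17:12769707-12769956, - strand: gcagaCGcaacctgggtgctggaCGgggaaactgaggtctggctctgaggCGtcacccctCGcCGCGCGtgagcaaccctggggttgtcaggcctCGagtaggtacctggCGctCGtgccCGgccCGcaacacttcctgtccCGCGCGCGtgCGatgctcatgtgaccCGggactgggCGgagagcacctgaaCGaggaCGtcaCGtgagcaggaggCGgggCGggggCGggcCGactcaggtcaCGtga

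The receptor windows were rich in CpG, with 42 in Igf1r and 27 in Igf2r, against a median of 6 over 32851 windows of 27025 genes. Among all windows, 99.1% held fewer CpGs than that of Igf1r and 91.4% fewer than that of Igf2r. The ligand windows ranged more widely, with 5 CpGs in Igf1 and 1, 10, 22 and 6 in the 4 windows of Igf2. Binding proteins lay on both sides. The Igfbp3 window held 32 CpGs, that of Igfbp4 held 22 and those of Igfbp2 held 14 and 11, whereas the windows of Igfbp6 and Igfbp1 held 7 and 5. The letters TATAAA, searched on both strands, were present in 2 of the 13 windows, those of Igfbp4 and Igfbp6, against 12.4% of all windows. GGGCGG was present in 5 of the 13, among them both receptors, against 32.7% of all windows, and CCAAT in 3, against 33.8%. Overlapping matches were counted separately. These counts describe the letters in the windows and nothing about any factor.

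Signals are in arbitrary units after quantile normalization, group levels are geometric means over 3 arrays, and SDs and standard errors (SE) are on the log2 scale. A probe set was tested if its signal exceeded 5.53, called the dim limit below, on at least 3 of the 6 arrays. Of the 15 member probe sets 11 were tested, covering all 9 genes. A probe set can pass through the 3 arrays of its brighter group alone and then had to differ, and the 11 are not all members. A call is an adjusted p under 0.05 in the limma fit over all 7768 tested probe sets. Over all of them 107 were called lower and 27 higher in the Aire-deficient cells. The lower share of the calls was 79.9%, or 63.8% after median scaling and 59% on the values as deposited. The beta-actin probe sets gave a 3′ over 5′ ratio of 95.8 on wild-type array 2, against 4.38 to 13.8 on the other 5 arrays. Wild-type array 2 was the highest of all 6 for 5 of the 11 tested member probe sets. The share over all tested probe sets is not given, so nothing is read from this count. Arrays of the same replicate number were treated as pairs in a second fit, with that number as a block, which is given where it changes a call.

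Both ligands and most binding proteins had lower signals in the Aire-deficient cells, whereas the groups overlapped for both receptors. The largest falls were those of Igf2, Igfbp3 and Igfbp6, by 20-fold, 3.64-fold and 3.01-fold. These 3 of the 11 tested probe sets were called lower, and 1.38% of all tested probe sets were, or 1.73% in either direction (0.348% higher). No member was called higher by limma, although 1 lay above 0 at an unadjusted p under 0.05, as did 500 of all 7768. With the replicate block 5 of the 11 were called lower, against 3.37% of all, and no member was called higher, against 1.93% (5.3% in either direction). After quantile normalization the groups did not overlap for 7 member probe sets that were lower and 1 that was higher. Of the 7, Igf1 95545_at overlapped on the values as deposited. Over all tested probe sets the normalized groups did not overlap for 10.1% lower and 10.4% higher (together 20.5%). Since the members were chosen with this contrast in view, nothing is read from these shares. The median log2 difference was -0.79 for the 11 members and 0.05 for all tested probe sets. Over the mixed RNA of a sorted pool, fewer cells of a type and less RNA per cell cannot be told apart.

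**Figure D1:**
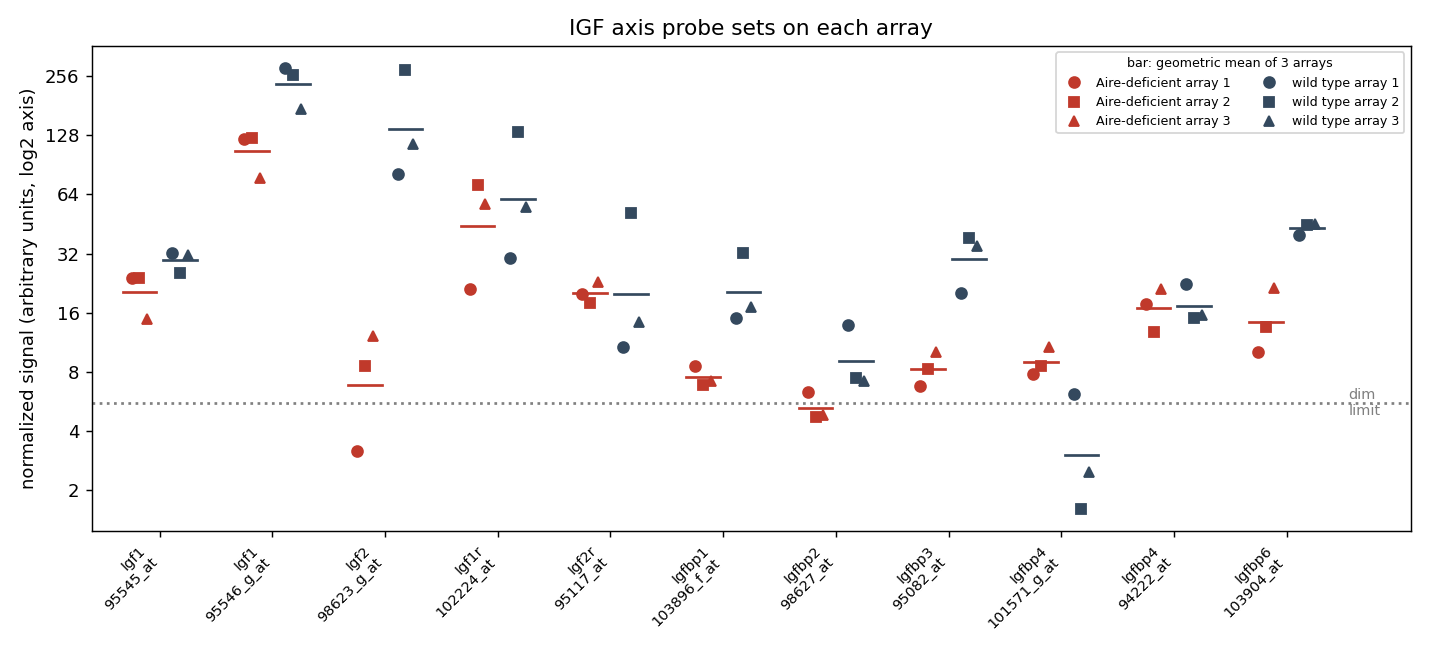
Normalized signal (arbitrary units, log2 axis) of the 11 tested probe sets on each array, with Aire-deficient arrays in red left of wild-type arrays in dark blue, 1 marker shape per replicate number and bars at the geometric means. Igf2 lies at 3.15 to 12.2 in red and 81.7 to 275 in blue, while Igf1r and Igf2r overlap between the colours.

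Igf2, a growth factor of fetal life, showed the widest gap of the family. Its probe set 98623_g_at read 3.15, 8.53 and 12.2 on Aire-deficient arrays 1 to 3, against 81.7, 275 and 116 on wild-type arrays 1 to 3. The lowest wild-type array was thus well above the highest Aire-deficient array, although both groups spread widely within themselves. Geometric means were 6.89 (SD 1.01, n = 3) in Aire-deficient cells and 138 (SD 0.90, n = 3) in wild-type cells, a log2 difference of -4.32 ± 0.56 (SE). Only 3 of the 7768 tested probe sets had a larger fall, and 1 of the 3 Aire-deficient arrays lay under the dim limit. Within the same-number pairs the log2 differences were -4.70, -5.01 and -3.25. Without wild-type array 2, the array with the high beta-actin ratio, the difference was -3.87 and still called. Without wild-type array 3 it was -4.45 and no longer called.

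The other Igf2 probe set, 98622_at, gave no measurement of the gene. It read 0.367 to 0.8 on the Aire-deficient arrays and 0.567 to 1 on the wild-type arrays, all under the floor of 1.8 below which signals were not ordered. Both probe sets were designed from the same sequence record, so the fall of Igf2 rests on 1 probe set. In this maker's naming a _g_at or _f_at probe set can also bind related sequences.

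Igf1, which growth hormone induces in many tissues, was measured by a pair of probe sets from another shared record. After quantile normalization both were lower without overlap. The probe set 95546_g_at read 122, 124 and 77.7 on the Aire-deficient arrays, against 282, 261 and 175 on the wild-type arrays. In both groups array 3 was the lowest, and the differences within same-number pairs were close to each other at -1.21, -1.08 and -1.17 on the log2 scale. The log2 difference of the group means was -1.15 ± 0.31 (SE), or 2.22-fold, with 106 in Aire-deficient and 234 in wild-type cells. It was not called in the fit without the block and was called lower with it. On the values as deposited the difference was -0.82, with 153.2 on the highest Aire-deficient and 156.5 on the lowest wild-type array. The probe set 95545_at read 24.1, 24 and 14.8 on the Aire-deficient arrays, against 32.3, 25.5 and 31.5 on the wild-type arrays. Here the groups were only just separate, the log2 difference was -0.53 ± 0.33 (SE), and neither fit called it. On the values as deposited the groups overlapped, at a log2 difference of -0.39. The deposited values were 22.4, 29.1 and 14.5 on the Aire-deficient arrays, against 32.1, 23.7 and 28.2 on the wild-type arrays.

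**Figure D2:**
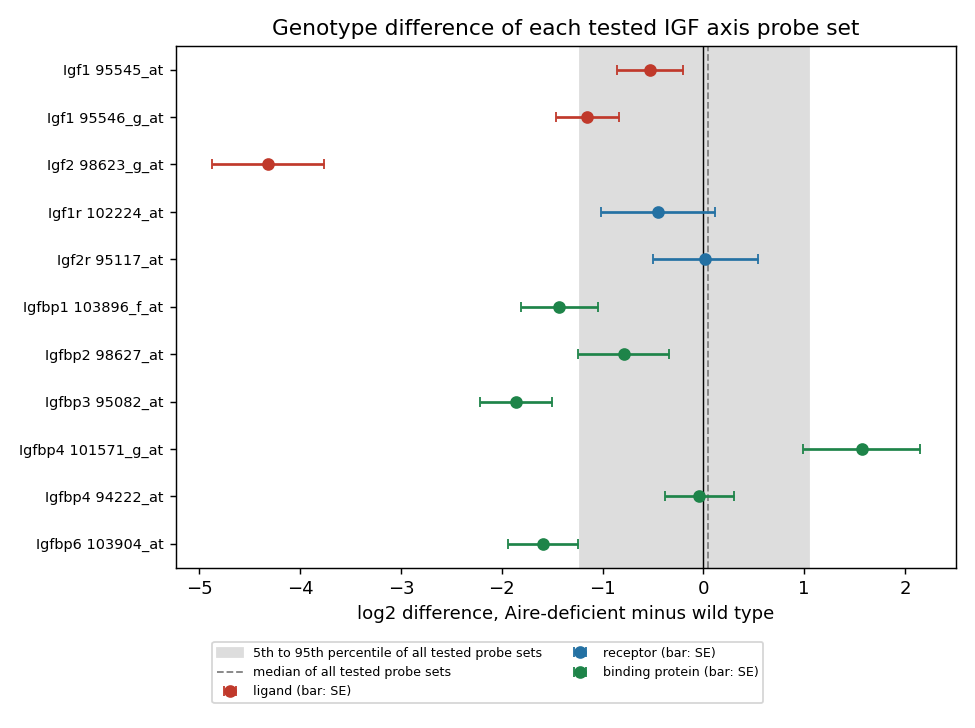
Log2 difference (Aire-deficient minus wild type) of the 11 tested probe sets, with bars of 1 SE and colours for ligands, receptors and binding proteins. The grey band spans the 5th to 95th percentile of all tested probe sets (-1.22 to 1.05); Igf2, Igfbp1, Igfbp3 and Igfbp6 lie left of it and the Igfbp4 probe set 101571_g_at lies right of it.

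The receptors showed no separation between the genotypes. Igf1r, the signalling receptor, read 21.1, 71.6 and 57.5 on the Aire-deficient arrays and 30.5, 133 and 55.1 on the wild-type arrays. Its log2 difference was -0.45 ± 0.57 (SE), and array 1 was the lowest of either group. Leaving out wild-type array 2 gave 0.11 and leaving out Aire-deficient array 1 gave 0.08, so the sign of this difference rested on single arrays. Igf2r, which clears Igf2 and also sorts lysosomal enzymes, read 19.9, 17.9 and 23 on the Aire-deficient arrays and 10.7, 51.7 and 14.3 on the wild-type arrays. The Aire-deficient arrays lay within the wild-type range, where array 2 was again the highest. The log2 difference was 0.02 ± 0.52 (SE), and it was 0.72 without wild-type array 2. With standard errors of this size a moderate change of either receptor would not have been detectable, and a missing call does not show equal levels.

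Among the binding proteins, Igfbp3, the main carrier of these hormones in blood, fell in the Aire-deficient cells. The probe set 95082_at read 6.77, 8.23 and 10.1 on the Aire-deficient arrays, against 20.1, 38.6 and 35.1 on the wild-type arrays. Every Aire-deficient array was thus below every wild-type array, with geometric means of 8.26 and 30.1 and a log2 difference of -1.86 ± 0.36 (SE). The call held without wild-type array 1 (-2.17) and was lost without any other single array (-1.72, -1.83 and -1.99 without Aire-deficient arrays 1 to 3, and -1.71 and -1.76 without wild-type arrays 2 and 3). The second Igfbp3 probe set, 95083_at, stayed under the dim limit on all 6 arrays and was not tested (0.917 to 5.44 in Aire-deficient and 1.27 to 3.13 in wild-type cells).

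Igfbp6, a binding protein that prefers Igf2 over Igf1, fell together with that ligand. It read 10.1, 13.6 and 21.3 on the Aire-deficient arrays, against 39.9, 44.8 and 45.1 on the wild-type arrays. The wild-type arrays lay close together (SD 0.10) while the Aire-deficient arrays were more spread (SD 0.54), and the log2 difference was -1.59 ± 0.35 (SE). Of the members called, Igfbp6 was the one nearest to the threshold. Its call was lost without any single array (differences of -1.85 to -1.34), after median scaling and on the values as deposited (-1.44 each), and was kept with the block. In all it held in 5 of 10 other ways of processing.

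Igfbp1, a product of the liver that insulin represses, had lower signals as well. The probe set 103896_f_at read 8.6, 6.88 and 7.2 on the Aire-deficient arrays, against 15.1, 32.2 and 17.2 on the wild-type arrays, without overlap. Its log2 difference was -1.43 ± 0.38 (SE), or 2.70-fold, and was called lower with the block only. Without wild-type array 2 it was -1.12. Igfbp1 and Igfbp3 are neighbouring coding genes on chromosome 11 in the mouse. The probe set 103897_r_at of Igfbp1 lay under the floor on all 6 arrays.

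Igfbp2, an abundant binding protein of fetal tissues, read 6.32, 4.73 and 4.83 on the Aire-deficient arrays and 13.8, 7.48 and 7.2 on the wild-type arrays. The groups were separate but near the dim limit, which 2 Aire-deficient arrays did not reach, and the log2 difference of -0.79 ± 0.45 (SE) was called in neither fit.

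The probe sets of Igfbp4, which inhibits the ligands until it is cleaved by a protease, disagreed. The probe set 101571_g_at read 7.83, 8.53 and 10.7 on the Aire-deficient arrays, against 6.2, 1.6 and 2.47 on the wild-type arrays. This was the only member probe set whose groups were separate with the Aire-deficient arrays on the higher side, at a log2 difference of 1.57 ± 0.58 (SE), and neither fit called it. On 2 of the 3 wild-type arrays the signal was under the dim limit, and raising all signals to that limit brought the difference to 0.64. The probe set 94222_at read 17.8, 12.8 and 21 on the Aire-deficient arrays and 22.4, 15.1 and 15.6 on the wild-type arrays, which overlapped (log2 difference -0.04 ± 0.34). The third, 101570_at, stayed under the dim limit on all 6 arrays.

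The neighbours of Igf2 on chromosome 7 were compared, because the gene lies in an imprinted region beside Ins2, one of the mouse insulin genes. The nearest 5 annotated genes with a probe set on each side gave 12 probe sets, of which 7 were tested. Of these 1 was called, against 1.73% of all tested probe sets in either direction. The call was that of the Ins2 probe set 100150_f_at. This read 0.467, 1.87 and 1.88 on the Aire-deficient arrays, against 14.7, 80.8 and 25.9 on the wild-type arrays. All 3 Aire-deficient arrays lay under the dim limit, so the signal was at least 5.65-fold lower there. This probe set passed the filter through its wild-type arrays alone, which fixed the direction beforehand, so its limma adjusted p of 0.00691 is given as the value of the fit and supports nothing. Without any 1 of the wild-type arrays too few bright arrays were left for a test. By its design the probe set may also bind Ins1, the other mouse insulin gene. As for Igf2, wild-type array 2 was the highest and wild-type array 1 the lowest of its group. The other Ins2 probe set, 161849_r_at, read 18.5, 7.83 and 11.1 on the Aire-deficient arrays, against 14.9, 6.38 and 13.5 on the wild-type arrays (log2 difference 0.11 ± 0.46). Th, which encodes the first enzyme of catecholamine synthesis and lies beyond Ins2, read 11.7, 7.83 and 9.05 on the Aire-deficient arrays, against 13.6, 15.1 and 18.9 on the wild-type arrays (adjusted p = 0.36 in the limma fit). On the other side Mrpl23, a mitochondrial ribosomal protein gene, read 16.7, 12.9 and 13.8 on the Aire-deficient arrays and 13.9, 12.2 and 15.7 on the wild-type arrays. The leukocyte gene Lsp1 gave log2 differences of -0.02 ± 0.41 and 0.07 ± 0.40 on its probe sets. Syt8, Tnni2, Tnnt3, Ascl2 and R74862 were too dim to be tested, and Tspan32 overlapped between the groups.

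**Figure D3:**
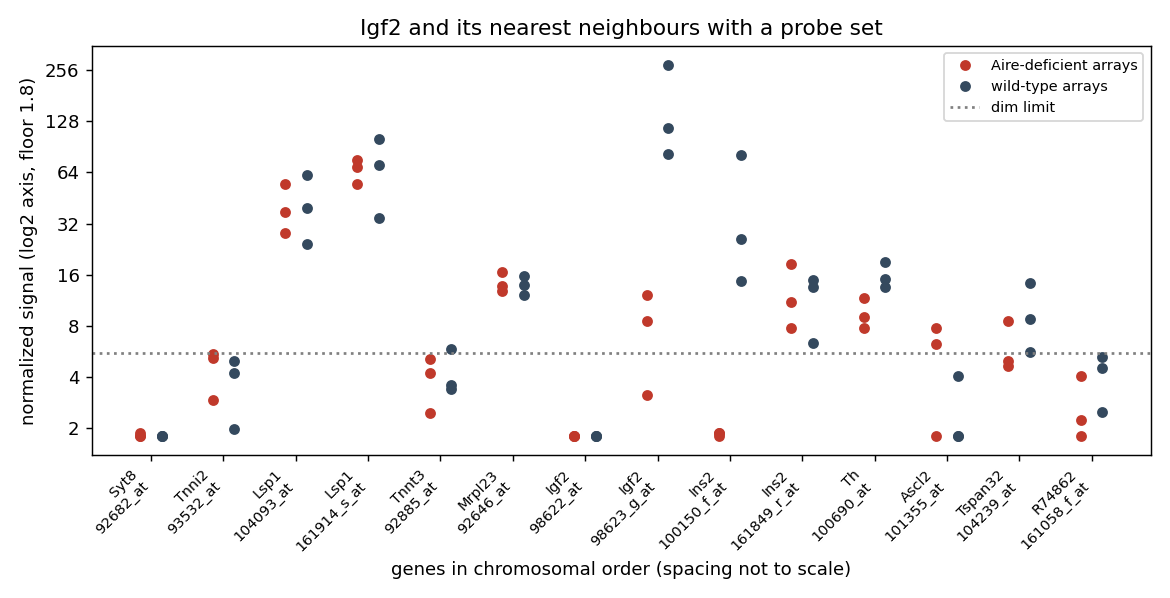
Normalized signal (log2 axis, with signals under 1.8 drawn at 1.8) of Igf2 and its nearest neighbours with a probe set, in chromosomal order with spacing not to scale; Aire-deficient arrays are red and left, wild-type arrays dark blue and right. Igf2 98623_g_at and Ins2 100150_f_at are separate by a wide gap, while Mrpl23 and Lsp1 overlap.

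The other genes of the pathway were taken from 7 lists with 92 genes, of which 66 had a probe set and 56 probe sets were tested. Of these 56, 1 was called lower, the Ins2 probe set whose direction the filter had fixed, against 1.38% of all tested probe sets. None was called higher by limma, against 0.348%. An unadjusted p under 0.05 in limma was reached by 4 lower and 3 higher probe sets, against 607 and 500 of all 7768. With the block 3 were called lower, against 3.37% of all tested probe sets. The median log2 difference of the 56 was -0.04, and 28 of them lay below 0, against 46.9% of all tested probe sets. Among the insulin family hormones, Rln1, which encodes relaxin, had a geometric mean of 4.2 in Aire-deficient and 14.8 in wild-type cells (limma adjusted p = 0.0848, or 0.0425 with the block). Among 12 tested probe sets of the growth hormone axis, Socs2, an inhibitor of growth hormone signalling, read 34.3, 62.2 and 56.6 on the Aire-deficient arrays, against 146, 124 and 110 on the wild-type arrays. The groups did not overlap, and the limma adjusted p was 0.067, or 0.0223 with the block. Ghrl, which encodes ghrelin, measured 5.1, 4.07 and 0.467 on the Aire-deficient arrays, against 10.9, 12.7 and 6.52 on the wild-type arrays (limma adjusted p = 0.237). All 3 Aire-deficient arrays lay under the dim limit, so Ghrl passed the filter through its wild-type arrays alone. Its direction was thus fixed beforehand and its p supports nothing, although it is among the 4 lower probe sets counted above.

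The intracellular branches held no call in either fit. Of 7 tested probe sets of the insulin receptor family and its adapters, Ptpn1, a phosphatase that acts on these receptors, had the smallest p, with 255 in Aire-deficient and 147 in wild-type cells (limma adjusted p = 0.218). Sos1, an activator of Ras, measured 14.1 in Aire-deficient and 26.1 in wild-type cells (limma adjusted p = 0.418). Of 17 probe sets of the branch from PI3 kinase to mTOR, the catalytic subunit gene Pik3ca measured 17.2 and 7.75 on one probe set and 39.8 and 19.2 on another, in Aire-deficient and wild-type cells (limma adjusted p = 0.237 and 0.293). Of 5 probe sets of the branch from Ras to the MAP kinases, Map2k1 measured 45.9 in Aire-deficient and 28.9 in wild-type cells (limma adjusted p = 0.494). None of 7 extracellular modulators was called, and Ctsd, a lysosomal protease, measured 36.1 in Aire-deficient and 54.6 in wild-type cells (limma adjusted p = 0.547). Of 5 probe sets of regulators of Igf mRNA or the Igf2 locus, the transcription factor Plagl1 gave 8.58 in Aire-deficient and 4.76 in wild-type cells on one probe set and 3.07 and 5.53 on another, in opposite directions (limma adjusted p = 0.459 and 0.624). H19, the imprinted partner of Igf2, had no probe set of its own.

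Probe sets most like Igf2 over the 6 arrays were sought by Pearson's r of log2 signals, as a description, since all 6 arrays and the genotype difference are shared. The 5 named probe sets closest to 98623_g_at were those of Krt12 (r = 0.994), a keratin of the cornea, Lbp (0.991), a plasma protein of the liver, Dppa5a (0.991), a gene of pluripotent cells, Kcnq1 (0.99), a potassium channel of a nearby imprinted domain, and Mdh2 (0.989), a mitochondrial enzyme. The size of their differences ranged widely, from -1.89 for Lbp to -0.47 for Mdh2 on the log2 scale, against -4.32 for Igf2. Kcnq1 passed the filter through its wild-type arrays alone, so the direction of its difference was fixed beforehand. The 5 closest to Igf1 95546_g_at were Tbcb (r = 0.991), Slc25a1 (0.991), Plet1 (0.985), Drc1 (0.984) and Gpam (0.984). Of these, Plet1, a surface protein of epithelial progenitors, measured 22.2 in Aire-deficient and 94.7 in wild-type cells.

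Of the tested probe sets of the medullary marker list 3 lay below 0. Epcam, the antigen of the G8.8 antibody, read 102, 79.8 and 86.9 on the Aire-deficient arrays and 234, 251 and 130 on the wild-type arrays. Cd80, which encodes the B7.1 of the sort, lay the other way on 93905_at, at 8.8, 13.1 and 11.8 on the Aire-deficient arrays and 3.52, 4.92 and 4.25 on the wild-type arrays, without overlap, and overlapped on 93906_s_at (log2 difference 0.73 ± 0.42). Tnfrsf11a, which encodes the receptor RANK, was likewise higher without overlap, at 5.73, 9.88 and 6.02 on the Aire-deficient arrays, against 1.55, 2.98 and 4.97 on the wild-type arrays. Both Cd80 93905_at and Tnfrsf11a were under the dim limit on all 3 wild-type arrays, and neither was called. They passed the filter through their Aire-deficient arrays alone, which fixed their direction and the lack of overlap beforehand. The medullary list had a median log2 difference of 0.22 and a summed signal of 434 to 496 on the Aire-deficient and 498 to 673 on the wild-type arrays. Of its 7 tested probe sets none was called without the block. With it 1, that of Epcam, was called lower, against 3.37% of all tested probe sets. Krt5 and Krt14, keratins of medullary epithelium, were under the dim limit on all 6 arrays, whereas Cldn4, a claudin of these cells, read 123 to 173 and 124 to 215 in Aire-deficient and wild-type cells. Mesenchyme, which is known to express Igf1, Igf2 and several binding proteins, showed no call among 12 tested probe sets of 20, and its summed signal was 228 to 381 on the Aire-deficient and 227 to 403 on the wild-type arrays. Within that list Col1a1 read 6.02, 15.6 and 21.4 on the Aire-deficient arrays, against 23.1, 34 and 29.7 on the wild-type arrays, and Dcn 102, 240 and 136 on the Aire-deficient arrays, against 72.8, 231 and 38.2 on the wild-type arrays.

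Myeloid and dendritic cell markers were lower as a sum, at 252 to 280 on the Aire-deficient arrays and 523 to 879 on the wild-type arrays, without overlap. In such a sum the brightest probe sets weigh most. Of the tested probe sets of this list 7 lay below 0, against 46.9% of all tested probe sets, and the median log2 difference was -1.54. Of 9 tested probe sets 2 were called lower, against 1.38% of all tested probe sets. They were those of Ly6g (at least 4.81-fold) and S100a8 (31.4 in Aire-deficient and 207 in wild-type cells). Cd14 (45.9 and 148) was added with the block, which called 3.37% of all tested probe sets lower. Csf1r (10.6 in Aire-deficient and 30.8 in wild-type cells on 104354_at) and Mpo (3.27 and 11.4 on 100414_s_at) were lower with overlapping groups, and not called. Some markers of the list did not follow. Lyz2, a lysozyme of macrophages, gave 120 in Aire-deficient and 122 in wild-type cells on its brighter probe set, and Itgax, which encodes CD11c, gave 10.4 in Aire-deficient and 7.45 in wild-type cells with overlapping groups. S100a8 was near the threshold (limma adjusted p = 0.0419), and without any single array other than wild-type array 1 its adjusted p was 0.0773 to 0.14, with log2 differences of -2.97 to -2.19. As for Ins2, Ly6g passed the filter through its wild-type arrays alone, so its direction was fixed beforehand, and it was not tested without any 1 of them. Ptprc encodes the CD45 that the sort excluded. Its brightest probe set read 7.93, 7.83 and 10.3 on the Aire-deficient arrays and 5.15, 7.22 and 5.33 on the wild-type arrays. This was higher without overlap, as were 10.4% of all tested probe sets, and not called. On 2 of the wild-type arrays it lay under the dim limit, and the other Ptprc probe sets did so on all 6 arrays. Itgam and Elane were under the dim limit on all 6. Macrophages are a known source of Igf1. The part of these markers, of Epcam and of the 3′ to 5′ ratio in the differences of Igf1, Igf2, Igfbp3 and Igfbp6 was not tested. The summed signals of endothelium, thymocytes, B cells and cortical epithelium overlapped between the groups. With the block 1 B cell probe set was called in each direction, against 3.37% lower and 1.93% higher of all tested probe sets. The one called lower, that of Ms4a1, passed the filter through its wild-type arrays alone, so its direction was fixed beforehand.

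**Figure D4:**
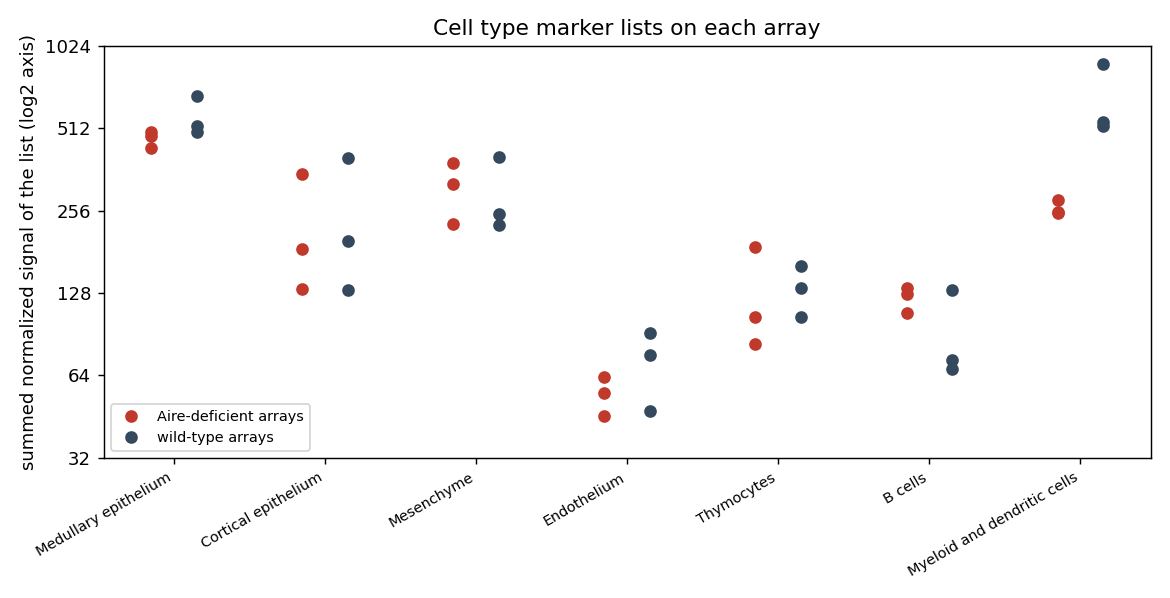
Summed normalized signal (log2 axis) of all probe sets of each marker list on each array, Aire-deficient arrays in red left of wild-type arrays in dark blue. The myeloid and dendritic list is the one with a wide gap between the groups (252 to 280 and 523 to 879).

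**Figure D5:**
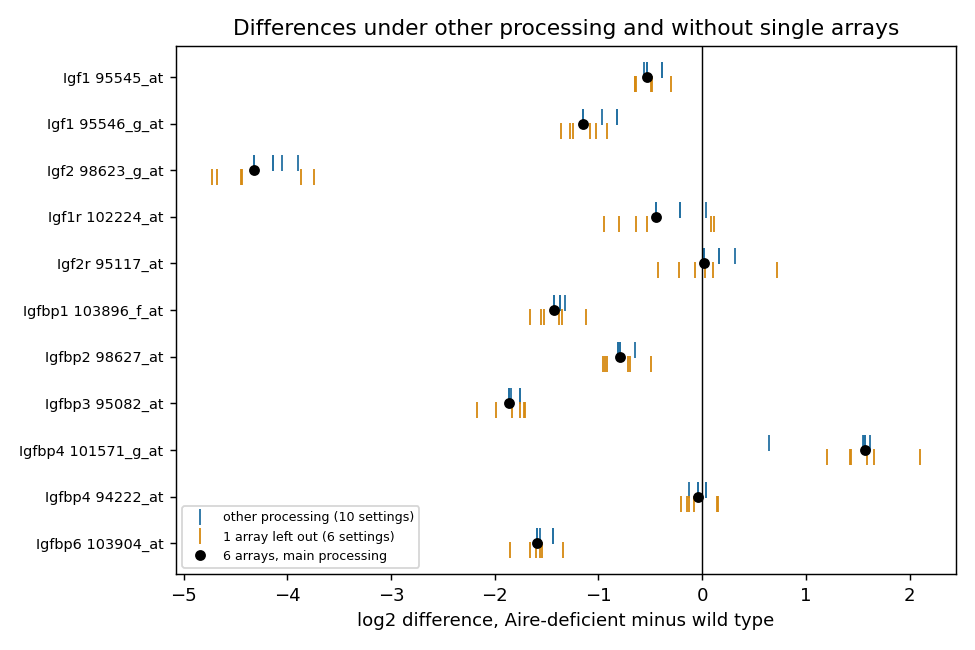
Log2 difference (Aire-deficient minus wild type) of each tested probe set with all 6 arrays (black), under 10 other ways of processing (blue) and with 1 array left out (orange). Igf2 stays between -4.73 and -3.74, while Igf1r and Igf2r lie on both sides of 0.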

How the data were processed

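The deposited table held linear signal intensity per probe set to 1 decimal for 6 arrays. The sources used here do not state how the authors computed, background-corrected and scaled these intensities, and no detection calls were used. Of 12488 probe sets 66 controls were left out; in the platform annotation 10833 of the remaining 12422 named 1 gene, 396 several and 1193 none. Gene names and neighbours came from RefSeq (GRCm38.p6).

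The 2% trimmed means of the arrays ranged from 19.6 to 26.9, so the arrays were quantile normalized, raised to a floor at the pooled 20th percentile (1.8) and log2 transformed. Tests covered the 7768 probe sets, each kept apart, whose signal passed the pooled 40th percentile (5.53) on 3 or more of 6 arrays. The number of arrays limits the precision. The genotype contrast was fitted with limma (version 3.58.1, under R 4.3.3; lmFit, eBayes with a variance trend, 2-sided) and Benjamini-Hochberg adjustment at 0.05. p-values reflect how far pools, with their amplification, varied. The labels do not say what the shared replicate numbers stand for. Same-number arrays deviated from their group means with correlations of 0.372, 0.198 and 0.193, and others with -0.253 to 0.068. The arrays were therefore treated as paired in the blocked fit. Deviations within a group sum to 0, so positive correlations of some arrays push the others below 0, and the contrast is not independent evidence. The pairing was inferred from the same data, on which the blocked fit then called more probe sets.

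The members, gene lists and markers were chosen with earlier results of these data known. Named are all members, the 5 probe sets most like Igf2 and Igf1, the Igf2 neighbours, and a few markers chosen after their values were seen. Pathway genes that were called are named as well, and some, but not all, with one of the 3 smallest p of their list. Alternatives changed the scaling, the floor, the filter or the variance model, or used array weights, 1 probe set per gene, the block and leaving out each array. The fit was tested on simulated data. Python 3.11.15 with matplotlib 3.10.9 drew the figures.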

Additional observations from a re-analysis of the deposited data

How the results depend on the processing

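The number of calls over all probe sets depended on the pairing and on single arrays. Against 107 lower and 27 higher calls, there were 262 and 150 with the replicate block, 166 and 72 with array weights and 10 and 6 without a filter on dim signals. The higher count was 55 after median scaling and 71 on the values as deposited. With 1 array left out the lower count ranged from 2 to 76 and the higher count from 0 to 9; where no probe set was called higher by limma, without wild-type array 3, 555 were higher at an unadjusted p under 0.05. Of the IGF members 3 were called lower, 5 with the block and 0 without a filter. Without a filter 5 of 15 member probe sets were lower at an unadjusted p under 0.05 in limma, against 721 of all 12422. With 1 array left out the member count ranged from 0 to 2. Without wild-type array 3 limma called 0. There 5 of 11 were lower at an unadjusted p under 0.05, against 469 of all 7394 tested. Since the members were chosen with this contrast in view, nothing is read from these counts. Of the pathway genes 1 probe set was called lower, 3 with the block, 2 with array weights, 2 with a floor at the 40th percentile, 0 with 1 probe set per gene (3 at an unadjusted p under 0.05 in limma, since the other Ins2 probe set then stands for the gene), 0 without a filter (4) and 0 to 1 with 1 array left out, the 0 where a wild-type array was left out and Ins2 no longer passed the filter (3 to 5 lower at an unadjusted p under 0.05 in limma). No member and no pathway probe set was called higher in any of these limma fits. At an unadjusted p under 0.05, 0 to 1 members and 1 to 5 pathway probe sets were higher in them. Over all probe sets 431 to 805 were lower and 277 to 799 higher at that threshold, of 5950 to 12422 tested. The block changed no other call of a member than those of Igf1 95546_g_at and Igfbp1 103896_f_at. The direction of each called member was the same in all 16 alternatives. On the values as deposited the median difference of all tested probe sets was 0.17 in place of 0.05; 10 of 11 members lay below the median of all probe sets under quantile normalization, median scaling and no scaling, and 9, 8 and 8 lay below 0. Where not stated, the cause of a changed count was not tested. Signals under the dim limit bound what can be said of Igf2 98622_at, Igfbp1 103897_r_at, Igfbp3 95083_at and Igfbp4 101570_at, which were not tested.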
